A study of Mus musculus with 8 samples.

Results

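The genes described here make, inactivate or sense prostaglandins and leukotrienes, the lipid mediators that cells form from arachidonic acid. They are 10 genes chosen by name, with earlier results of these data known. Each was found in the deposited tables by Entrez identifier: Ptgs1, Ptgs2, Ptges, Ptgis, Hpgds, Hpgd, Ptger2, Ptger4, Alox5 and Alox15. They are 10 of the 36528 identifiers that each table lists, and all 10 had enough counts to be tested. RNA was taken from primary mouse mesothelial cells, whose labelled tissue is the omentum, a fatty fold of the peritoneum. The comparison asks how loss of BAP1, a nuclear deubiquitinase and tumour suppressor of mesothelioma, changes gene expression there. There were 4 BAP1 KO libraries, in which BAP1 was knocked out, and 4 WT libraries. The labels used here state no strain, age or treatment, nor how BAP1 was deleted and in what share of the cells. Nor do they say whether each library had its own animal or culture, so p-values reflect the variation among these 8 libraries, some of which may be technical. That variation was small: beyond counting noise, the common coefficient of variation in edgeR was 0.0291. Whether it covers differences between animals or cultures is not known.

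Cyclooxygenases turn arachidonic acid, released from membranes by phospholipases, into prostaglandin H2. Terminal synthases convert that intermediate to prostaglandin E2, prostaglandin D2, prostacyclin or thromboxane, each of which acts on its own G protein-coupled receptors. Lipoxygenases instead start the route to leukotrienes and related hydroxy fatty acids. Prostaglandins are known to be made by mesothelial cells and by peritoneal macrophages, and leukotrienes mainly by myeloid cells.

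Libraries held 67.1 to 84.9 M counts, more than the 30 M reads that the protocol states. Values are CPM, counts scaled to TMM-adjusted library totals. A log2 fold change, given with its standard error (SE), is positive where BAP1 KO is higher, and comes from edgeR's quasi-likelihood test with p-values adjusted over the 16929 genes tested and called at 0.05. Bap1 itself averaged 53.2 ± 0.91 CPM in BAP1 KO libraries and 63.2 ± 0.73 CPM in WT libraries (SD, n = 4 each), a log2 fold change of -0.25 ± 0.03 (edgeR adjusted p = 2.1e-09). The counts are summed over each gene, so the deleted part of Bap1 was not examined. The mesothelial markers Upk3b (464 and 462 CPM in BAP1 KO and WT) and Wt1 (166 and 121 CPM) were present, while Msln stood at 3.06 and 6.95 CPM. Macrophage genes were abundant, with Lyz2 at 11027 CPM in BAP1 KO libraries and 8388 CPM in WT libraries. In such bulk RNA, fewer cells of a type and less RNA per cell cannot be told apart.

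Of the 10 genes, 5 fell and 1 rose in BAP1 KO libraries. Those that fell were the cyclooxygenases Ptgs1 and Ptgs2, the prostacyclin synthase Ptgis and the prostaglandin E2 receptors Ptger2 and Ptger4, and the gene that rose was the lipoxygenase Alox5. The other 4, Ptges, Hpgds, Hpgd and Alox15, did not pass. The share called, 6 of 10, was near the background, because 61.1% of all genes tested were called in either direction. By direction, the background was 32.1% lower and 29.0% higher. The same 6 genes had all 4 BAP1 KO values on one side of the 4 WT values, as did 53.8% of all genes tested. Ptgs2, Ptger2 and Ptger4, 3 of 10, were called and fell by 1.5-fold or more, as did 10.3% of all genes tested. In either direction, 14.8% of all genes tested were called and changed by that much. The median log2 fold change of the 10 genes was -0.17, and that of all genes tested -0.005.

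**Figure D1:**
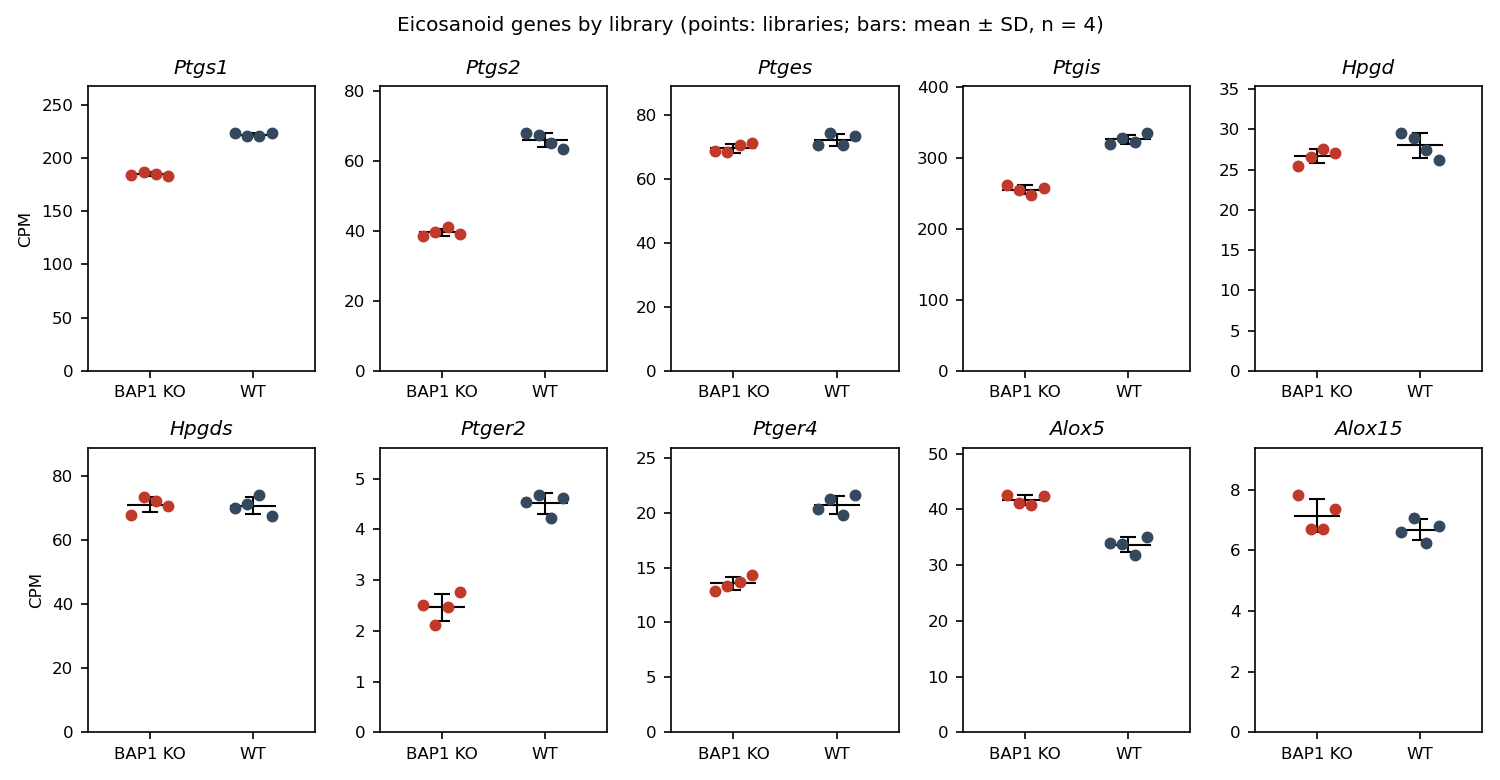
Level of each of the 10 genes in CPM (vertical axes, from 0) in the 4 BAP1 KO libraries (left) and the 4 WT libraries (right), with points for libraries and bars for mean ± SD. Ptgs1, Ptgs2, Ptgis, Ptger2 and Ptger4 were lower and Alox5 was higher in all 4 BAP1 KO libraries than in any WT library, and the other 4 genes overlapped.

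The enzymes that start prostaglandin synthesis were both lower in BAP1 KO libraries, with log2 fold changes of -0.73 for the inducible Ptgs2 and -0.26 for the constitutive Ptgs1. The difference between these changes was not tested. Ptgs2 (Entrez 19225; GRCm38 chromosome 1, 150100031 to 150108234) encodes cyclooxygenase-2, which inflammatory and growth signals induce. It had 38.6, 39.8, 41.0 and 39.1 CPM in BAP1 KO libraries, against 67.8, 67.4, 65.1 and 63.5 CPM in WT libraries. Every BAP1 KO library lay below every WT library, at 60.1% of the WT mean, on 2676 to 5728 counts per library. BAP1 KO minus WT came to -0.73 ± 0.03 on the log2 scale (edgeR adjusted p = 1.8e-19), and the call also held in a test against a 1.5-fold change, which called 8.18% of all genes tested. No exon of another gene overlaps Ptgs2 in GENCODE vM21.

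Ptgs1 (Entrez 19224; chromosome 2, 36216742 to 36258593) encodes cyclooxygenase-1, the form that most cells make without stimulation. It had 184, 187, 185 and 183 CPM in BAP1 KO libraries, against 223, 221, 221 and 223 CPM in WT libraries. The groups did not overlap, and libraries of a genotype differed by a coefficient of variation of at most 0.959%. Its log2 fold change came to -0.26 ± 0.02 (edgeR adjusted p = 1.9e-12), or 83.3% of the WT level. Of the summed cyclooxygenase level per gene length (the authors' normalized RPKM, nRPKM), Ptgs2 made up 22.8 ± 0.40% in BAP1 KO libraries and 29.1 ± 0.65% in WT libraries (SD, n = 4 each). That share ran from 22.4 to 23.4% in BAP1 KO libraries and from 28.2 to 29.6% in WT libraries, without overlap. The exons of Ptgs1 overlap those of Gm43621 on the opposite strand over 148 bp, and the library kit does not mark strand.

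The promoter sequences of the 3 genes that fell by 1.5-fold or more and of the 1 gene that rose are given to show what these starts do and do not share. Each runs from 250 bases before to 30 bases after the annotated start, 5′ to 3′ on the gene's strand, from RefSeq on GRCm38.p6. Capitals mark matches, on either strand, to 9 short motifs: TGACG (core of the cyclic AMP response element), CACGTG (E-box), TGANTCA (AP-1), TTGCGNAA (C/EBP), GGGCGG (GC box), CCAAT, GCCATNTT (YY1), TATAAA and the NF-kB motif. The windows are chr1:150099781-150100060 (plus strand) for Ptgs2, chr14:44987861-44988140 (plus strand) for Ptger2, chr15:5244158-5244437 (minus strand) for Ptger4 and chr6:116461149-116461428 (minus strand) for Alox5.
Ptgs2: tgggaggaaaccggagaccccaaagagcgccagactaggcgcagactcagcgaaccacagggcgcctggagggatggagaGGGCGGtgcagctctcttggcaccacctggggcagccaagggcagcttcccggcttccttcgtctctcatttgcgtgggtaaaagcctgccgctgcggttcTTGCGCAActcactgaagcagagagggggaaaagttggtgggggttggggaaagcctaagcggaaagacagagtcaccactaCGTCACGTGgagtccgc
Ptger2: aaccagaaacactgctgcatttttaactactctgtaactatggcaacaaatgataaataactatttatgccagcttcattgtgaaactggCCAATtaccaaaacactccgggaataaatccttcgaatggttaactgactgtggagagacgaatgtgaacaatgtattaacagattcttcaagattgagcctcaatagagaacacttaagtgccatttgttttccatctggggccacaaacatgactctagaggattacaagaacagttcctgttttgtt
Ptger4: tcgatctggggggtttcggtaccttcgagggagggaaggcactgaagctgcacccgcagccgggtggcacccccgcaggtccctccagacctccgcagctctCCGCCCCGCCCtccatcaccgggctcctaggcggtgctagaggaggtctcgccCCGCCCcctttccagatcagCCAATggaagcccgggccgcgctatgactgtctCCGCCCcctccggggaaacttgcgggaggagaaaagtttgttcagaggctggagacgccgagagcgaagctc
Alox5: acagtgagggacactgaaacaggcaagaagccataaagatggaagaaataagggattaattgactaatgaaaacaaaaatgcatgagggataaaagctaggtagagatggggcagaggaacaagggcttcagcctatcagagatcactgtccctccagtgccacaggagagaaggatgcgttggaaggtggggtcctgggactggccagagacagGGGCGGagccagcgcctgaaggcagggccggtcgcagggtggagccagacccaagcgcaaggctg

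The Ptgs2 window held a C/EBP match at bases -69 to -62 and, just after the annotated start, a cyclic AMP response element core at 14 to 18 that overlaps an E-box at 17 to 22. Over 27025 promoter windows of the same length, 0.762% held the C/EBP letters, 20.1% the response element core and 6.89% the E-box. GC boxes, in 34.9% of all windows, were present once in Ptgs2 and in Alox5 and 4 times in Ptger4, where a pair shares a base, and were not matched in Ptger2. CCAAT, in 36.6% of all windows, was matched in Ptger2 and Ptger4. The AP-1, NF-kB, YY1 and TATAAA letters, in 7.57%, 4.08%, 5.33% and 13.7% of all windows, were not matched in these 4 windows. Sequence outside the windows, and other starts of these genes, were not searched, so a site there would be missed. No motif was thus matched in all 3 of the genes that fell most, and their GC contents were 61.4% for Ptgs2, 37.9% for Ptger2 and 66.8% for Ptger4, against a median of 52.5% over all windows. A match describes letters only, not binding. Of the 10 genes, 8 had a window in the table. Outside the 4 shown, GC boxes were matched in Ptges and Hpgd, which did not pass, and not in Ptgs1 or Hpgds.

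Of the synthases that follow, Ptgis fell, while Ptges and Hpgds did not pass. Ptgis (Entrez 19223; chromosome 2, 167203194 to 167252150) makes prostacyclin, which relaxes vessels and restrains platelets, and was the gene with the highest level per length among the 10. It had 262, 255, 248 and 258 CPM in BAP1 KO libraries, against 320.1, 329, 323 and 335 CPM in WT libraries. No BAP1 KO library reached the lowest WT library. Its log2 fold change came to -0.35 ± 0.02 (edgeR adjusted p = 7.9e-15), or 78.3% of the WT level. Its exons overlap those of 1110018N20Rik on the opposite strand over 156 bp, a gene at 0.301 CPM in BAP1 KO and 0.318 CPM in WT.

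Ptges (Entrez 64292; chromosome 2, 30889471 to 30931020), the inducible microsomal prostaglandin E synthase that works with cyclooxygenase-2, had 68.5, 68.2, 70.5 and 71.0 CPM in BAP1 KO libraries, against 70.6, 74.1, 70.6 and 73.2 CPM in WT libraries. The groups overlapped, and the 95% interval of the log2 fold change ran from -0.11 to 0.00 (edgeR adjusted p = 0.087). Ptges was called lower with upper quartile factors (-0.06, edgeR adjusted p = 0.045) and with library totals alone (-0.07, edgeR adjusted p = 0.026), with adjusted p-values between 0.026 and 0.26 across every alternative but the test against 1.5-fold. Hpgds (Entrez 54486; chromosome 6, 65117293 to 65144981) makes prostaglandin D2 in mast cells, macrophages and some lymphocytes. It had 68.0, 73.6, 72.2 and 70.9 CPM in BAP1 KO libraries, against 70.0, 71.4, 74.2 and 67.7 CPM in WT libraries. The values were mixed, with an interval of -0.05 to 0.07 (edgeR adjusted p = 0.83). Markers of mast cells, 8 in all, summed to 3.67 to 4.04 CPM in BAP1 KO libraries and 3.74 to 4.17 CPM in WT libraries, with none at 0 in every library.

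Hpgd (Entrez 15446; chromosome 8, 56294552 to 56321046), the dehydrogenase that inactivates prostaglandins, had 25.5, 26.6, 27.6 and 27.1 CPM in BAP1 KO libraries, against 29.5, 29.0, 27.4 and 26.2 CPM in WT libraries. The groups overlapped, and the interval of the log2 fold change was -0.15 to 0.01 (edgeR adjusted p = 0.12). Without WT replicate 4 it was called lower (-0.10, edgeR adjusted p = 0.021), with adjusted p-values between 0.021 and 0.35 across every alternative but the test against 1.5-fold.

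Both prostaglandin E2 receptors among the 10 fell, and none of the other 8 genes fell as far as Ptger2. Ptger2 and Ptger4 encode EP2 and EP4, which raise cyclic AMP when they bind prostaglandin E2. Ptger2 (Entrez 19217; chromosome 14, 44988111 to 45003820) had 2.51, 2.12, 2.47 and 2.77 CPM in BAP1 KO libraries, against 4.54, 4.68, 4.22 and 4.62 CPM in WT libraries. The highest BAP1 KO value lay well under the lowest WT value, though on only 165 to 398 counts per library. Its log2 fold change came to -0.88 ± 0.09 (edgeR adjusted p = 2.2e-10), and -0.93 to -0.77 over the alternatives, with a call also against a 1.5-fold change. Ptger4 (Entrez 19219; chromosome 15, 5233399 to 5244187) had 12.9, 13.3, 13.7 and 14.3 CPM in BAP1 KO libraries, against 20.3, 21.2, 19.8 and 21.6 CPM in WT libraries. The groups did not overlap, and BAP1 KO libraries averaged 65.4% of the WT level, a log2 fold change of -0.61 ± 0.04 (edgeR adjusted p = 1.8e-13). Exons of Ptger4 overlap those of Gm15937 over 1015 bp and of Ttc33 over 82 bp, and exons of Ptger2 those of Gm17173 over 246 bp and of Gm49364 over 144 bp, all on the opposite strand, so some reads may belong to these neighbours.

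Of the lipoxygenases, Alox5 rose and Alox15 did not pass. Alox5 (Entrez 11689; chromosome 6, 116410071 to 116461178) encodes 5-lipoxygenase, the first enzyme of leukotriene synthesis. It had 42.6, 41.2, 40.8 and 42.5 CPM in BAP1 KO libraries, against 34.0, 33.8, 31.9 and 35.1 CPM in WT libraries. Each BAP1 KO library was above each WT library, with a log2 fold change of 0.31 ± 0.03 (edgeR adjusted p = 1.5e-09), and 0.28 to 0.33 over the alternatives. Alox15 (Entrez 11687; chromosome 11, 70344147 to 70390538), a second lipoxygenase that marks resident peritoneal macrophages in the mouse, had 7.83, 6.70, 6.70 and 7.36 CPM in BAP1 KO libraries, against 6.61, 7.06, 6.26 and 6.81 CPM in WT libraries. The groups overlapped, with an interval of -0.04 to 0.22 (edgeR adjusted p = 0.22). Against a 1.5-fold change the calls of Ptgs1, Ptgis, Ptger4 and Alox5 were lost.

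Levels per gene length spanned a wide range and their order changed at one place. In nRPKM, BAP1 KO libraries averaged 135 for Ptgis, 32.1 for Ptgs1, 18.8 for Hpgds, 17.1 for Ptges, 15.5 for Hpgd, 14.7 for Alox5, 9.50 for Ptgs2, 4.06 for Ptger4, 2.38 for Alox15 and 0.594 for Ptger2. WT libraries averaged 171 for Ptgis, 38.3 for Ptgs1, 18.6 for Hpgds, 17.6 for Ptges, 16.1 for Hpgd, 15.7 for Ptgs2, 11.8 for Alox5, 6.15 for Ptger4, 2.21 for Alox15 and 1.08 for Ptger2. Alox5 and Ptgs2 changed places: Alox5 lay above Ptgs2 in each BAP1 KO library and below it in each WT library. Of their summed level, Alox5 made up 60.7 ± 1.1% in BAP1 KO libraries and 42.9 ± 1.3% in WT libraries (SD, n = 4 each). Among neighbours in the order, library ranges overlapped between Hpgd and Alox5 in BAP1 KO, and between Hpgds and Ptges and between Hpgd and Ptgs2 in WT. Among all genes tested, the mean level of Ptgis stood at the 98.0 percentile and that of Ptger2 at the 24.5 percentile.

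**Figure D2:**
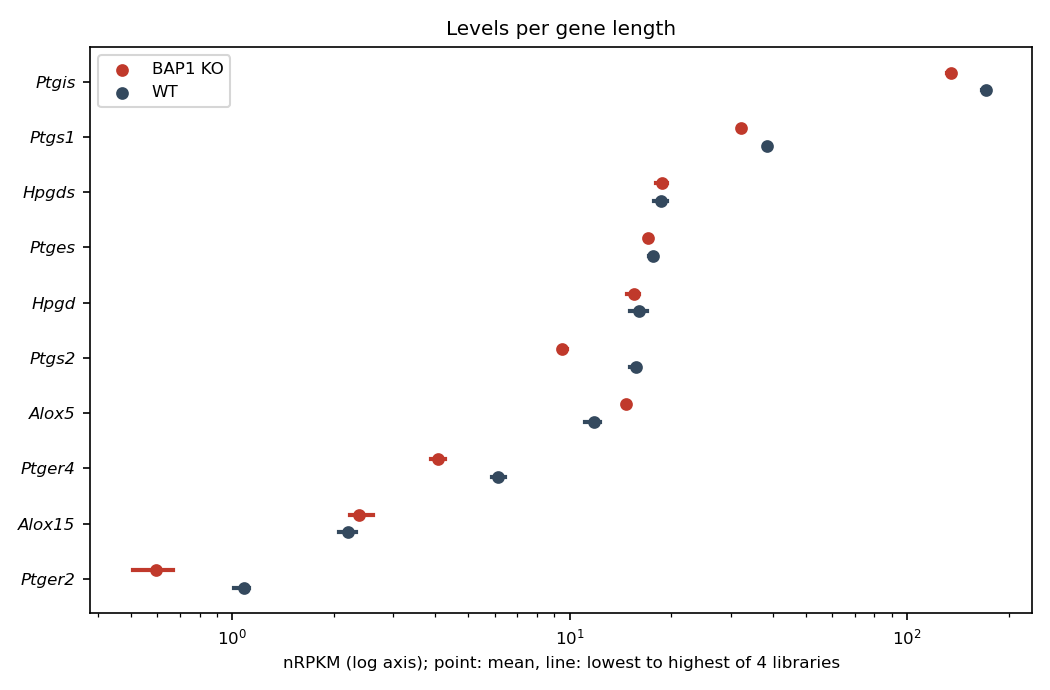
Mean level per gene length in nRPKM (horizontal log axis) of the 10 genes in BAP1 KO libraries (upper point of each pair) and WT libraries (lower point), with lines from the lowest to the highest of 4 libraries. Ptgis led in both genotypes (135 and 171 nRPKM), and Alox5 lay above Ptgs2 in BAP1 KO and below it in WT.

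**Figure D3:**
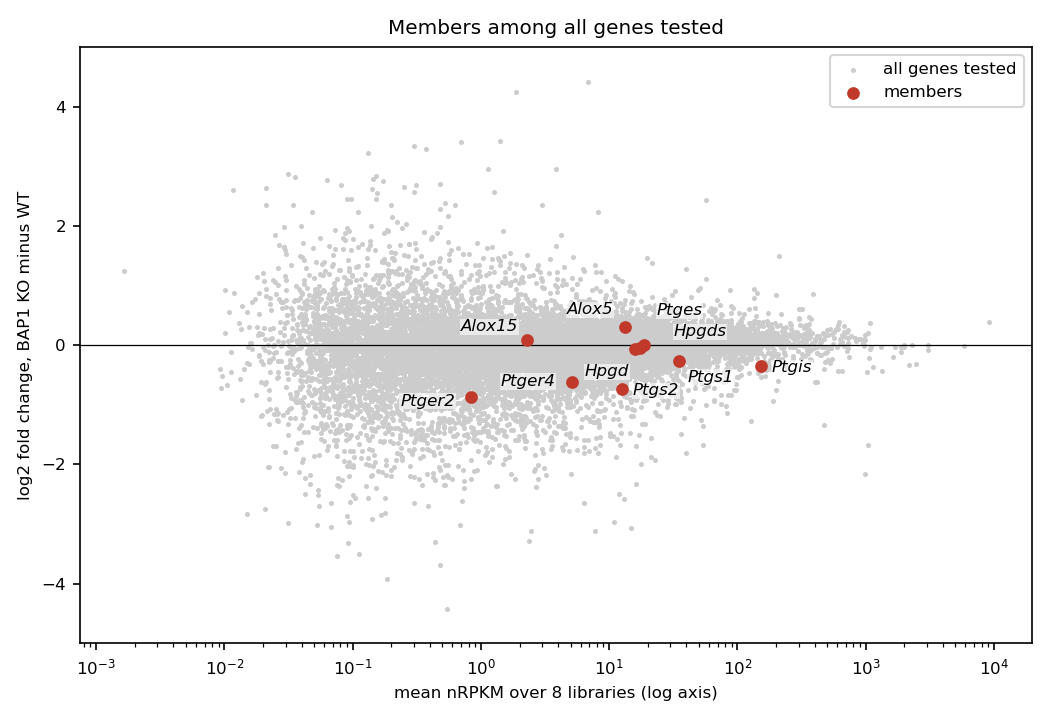
Log2 fold change, BAP1 KO minus WT (vertical axis), against mean nRPKM over 8 libraries (horizontal log axis) for all 16929 genes tested (grey) and the 10 genes (red). The 10 genes lay within the cloud of all genes, from -0.88 for Ptger2 to 0.31 for Alox5.

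The rest of the pathway, a list of 50 other genes grouped by role, moved in both directions. The list was drawn up with earlier results of these data known, so its shares describe the list only. Of its genes, 41 were tested, and 17 fell, 10 rose and 14 did not pass. The share called, 65.9%, stands beside 61.1% of all genes tested. The share lower was 41.5% beside a background of 32.1%, and the share higher 24.4% beside 29.0%. Their median log2 fold change was -0.08. Counts by role below rest on few genes each and are not read as results about a role. The genes named from this list are the 3 most abundant of each role, and any other gene named was chosen after its values were seen.

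Upstream of the cyclooxygenases, the main arachidonate-releasing enzyme fell. Among 8 phospholipases tested, 2 fell and 1 rose, and the other 5 were not called. As shares, 25% were lower and 12.5% higher, beside 32.1% and 29.0% of all genes tested. Pla2g4a, cytosolic phospholipase A2, averaged 81.6 ± 3.1 CPM in BAP1 KO libraries and 102 ± 1.8 CPM in WT libraries (SD, n = 4 each), a log2 fold change of -0.32 ± 0.03 (edgeR adjusted p = 9.1e-12). Pla2g7, which breaks down platelet-activating factor rather than releasing arachidonate, fell to 8.03 CPM in BAP1 KO, against 15.6 CPM in WT (-0.95 ± 0.05; exons overlap 1700071M16Rik over 319 bp). Pla2g6, a calcium-independent phospholipase, stood at 24.0 and 22.5 CPM in BAP1 KO and WT (0.09 ± 0.04, edgeR adjusted p = 0.041), a call lost in 10 of 18 alternatives, with adjusted p-values between 0.015 and 0.13 across all but the test against 1.5-fold. With single libraries left out, the call was lost without BAP1 KO replicates 1, 3 or 4 and without WT replicates 1 or 3, with log2 fold changes of 0.07 to 0.09.

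The remaining terminal synthases divided, 3 of the 8 tested lower, 2 higher and 3 not called. Shares of 37.5% lower and 25% higher compare with 32.1% and 29.0% of all genes tested. Tbxas1, the thromboxane synthase of macrophages and platelets, averaged 153 ± 2.2 CPM in BAP1 KO libraries and 143 ± 1.6 CPM in WT libraries (SD, n = 4 each), a rise of 0.10 ± 0.02 (edgeR adjusted p = 0.00035). Cbr1, a carbonyl reductase that can convert prostaglandin E2 to prostaglandin F2 alpha, fell to 22.3 CPM in BAP1 KO, against 33.1 CPM in WT (-0.57 ± 0.04). Prxl2b, a prostamide and prostaglandin F synthase, stood at 27.4 and 26.8 CPM in BAP1 KO and WT (edgeR adjusted p = 0.58, interval -0.05 to 0.11). On the opposite strand, exons of Tbxas1 overlap Gm42962 over 144 bp and exons of Prxl2b overlap Mmel1 over 25 bp.

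Genes of prostaglandin transport and inactivation fell in 3 of 5 cases, with 1 rise and 1 that did not pass. Those shares, 60% lower and 20% higher, stand beside 32.1% and 29.0% of all genes tested. Ptgr1, a reductase that inactivates 15-keto-prostaglandins and leukotriene B4, had 17.5, 17.6, 17.4 and 17.5 CPM in BAP1 KO libraries, against 35.2, 35.1, 35.3 and 36.0 CPM in WT libraries. The libraries of a genotype lay close together and the genotypes far apart, with a log2 fold change of -1.02 ± 0.03 (edgeR adjusted p = 1.2e-21). Ptgr2, which reduces the same 15-keto-prostaglandins, rose to 63.8 CPM in BAP1 KO, against 51.8 CPM in WT (0.30 ± 0.03), and its exons overlap Gm47484 on the opposite strand over 1896 bp. Slco2a1, the transporter that takes prostaglandins into cells for breakdown by Hpgd, averaged 127 ± 1.1 CPM in BAP1 KO libraries and 143 ± 3.4 CPM in WT libraries (SD, n = 4 each), a fall of 0.18 ± 0.02 on the log2 scale (edgeR adjusted p = 5.9e-08). Exons of Slco2a1 overlap n-R5s89 on the opposite strand over 104 bp.

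The other prostanoid receptors did not move together. Among the 6 tested, 3 were higher, 2 lower and 1 not called. Beside 29.0% higher and 32.1% lower of all genes tested, these shares were 50% and 33.3%. Ptgir, the prostacyclin receptor, fell to 13.2 ± 0.56 CPM in BAP1 KO, against 19.3 ± 1.1 CPM in WT (SD, n = 4 each), with a log2 fold change of -0.55 ± 0.05 (edgeR adjusted p = 7.6e-12). Tbxa2r, the thromboxane receptor, rose by 0.13 ± 0.04, to 21.3 CPM in BAP1 KO, against 19.4 CPM in WT.

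In the leukotriene branch, the rise of Alox5 stood beside falls of its partner and of the next enzyme. The 8 genes of leukotriene synthesis and breakdown tested comprised 4 that fell, 2 that rose and 2 that were not called. Lower were thus 50% and higher 25%, beside 32.1% and 29.0% of all genes tested. Alox5ap, the membrane protein that presents arachidonic acid to 5-lipoxygenase, had 127, 132, 129 and 132 CPM in BAP1 KO libraries, against 161, 176, 178 and 174 CPM in WT libraries. The groups did not overlap, with a log2 fold change of -0.40 ± 0.03 (edgeR adjusted p = 4.7e-14), opposite in sign to that of Alox5. Exons of Alox5ap overlap those of Gm19719 on the opposite strand over 189 bp. Lta4h, the hydrolase that makes leukotriene B4, fell by 0.29 ± 0.03 on the log2 scale, to 59.4 CPM in BAP1 KO, against 72.4 CPM in WT. Ltc4s, the synthase of the cysteinyl branch, rose: it had 25.2, 25.2, 23.1 and 25.1 CPM in BAP1 KO libraries, against 13.8, 14.6, 14.7 and 15.2 CPM in WT libraries (0.76 ± 0.04, edgeR adjusted p = 4.5e-16). Its exons overlap Gm26542 on the opposite strand over 268 bp. Dpep1, a dipeptidase that converts leukotriene D4 to E4, fell to 17.5 ± 0.69 CPM in BAP1 KO, against 48.4 ± 0.88 CPM in WT (SD, n = 4 each), with a log2 fold change of -1.47 ± 0.03 (edgeR adjusted p = 1.8e-25).

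Receptors for leukotrienes and lipoxin, 5 tested, were lower in 3 cases, higher in 1 and not called in 1. That is 60% lower and 20% higher, beside 32.1% and 29.0% of all genes tested. Cysltr1, a receptor for cysteinyl leukotrienes, fell to 13.7 ± 0.75 CPM in BAP1 KO, against 19.0 ± 1.3 CPM in WT (SD, n = 4 each; log2 fold change -0.47 ± 0.05). Fpr2, which binds formyl peptides and lipoxin A4, rose by 1.05 ± 0.10, to 3.48 CPM in BAP1 KO, against 1.67 CPM in WT. Exons of Fpr2 overlap Fpr3 on the same strand over 48 bp. Ltb4r1, the high-affinity receptor for leukotriene B4, was low, at 0.311 and 0.867 CPM in BAP1 KO and WT (-1.45 ± 0.22). Of 5 other lipoxygenases, 1 was tested: Aloxe3 stood at 0.176 and 0.207 CPM in BAP1 KO and WT (edgeR adjusted p = 0.59), Alox8 and Alox12 were lower still at 0.0582 and 0.0662 CPM in BAP1 KO and 0.120 and 0.110 CPM in WT, and Alox12b had no count in any library.

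**Figure D4:**
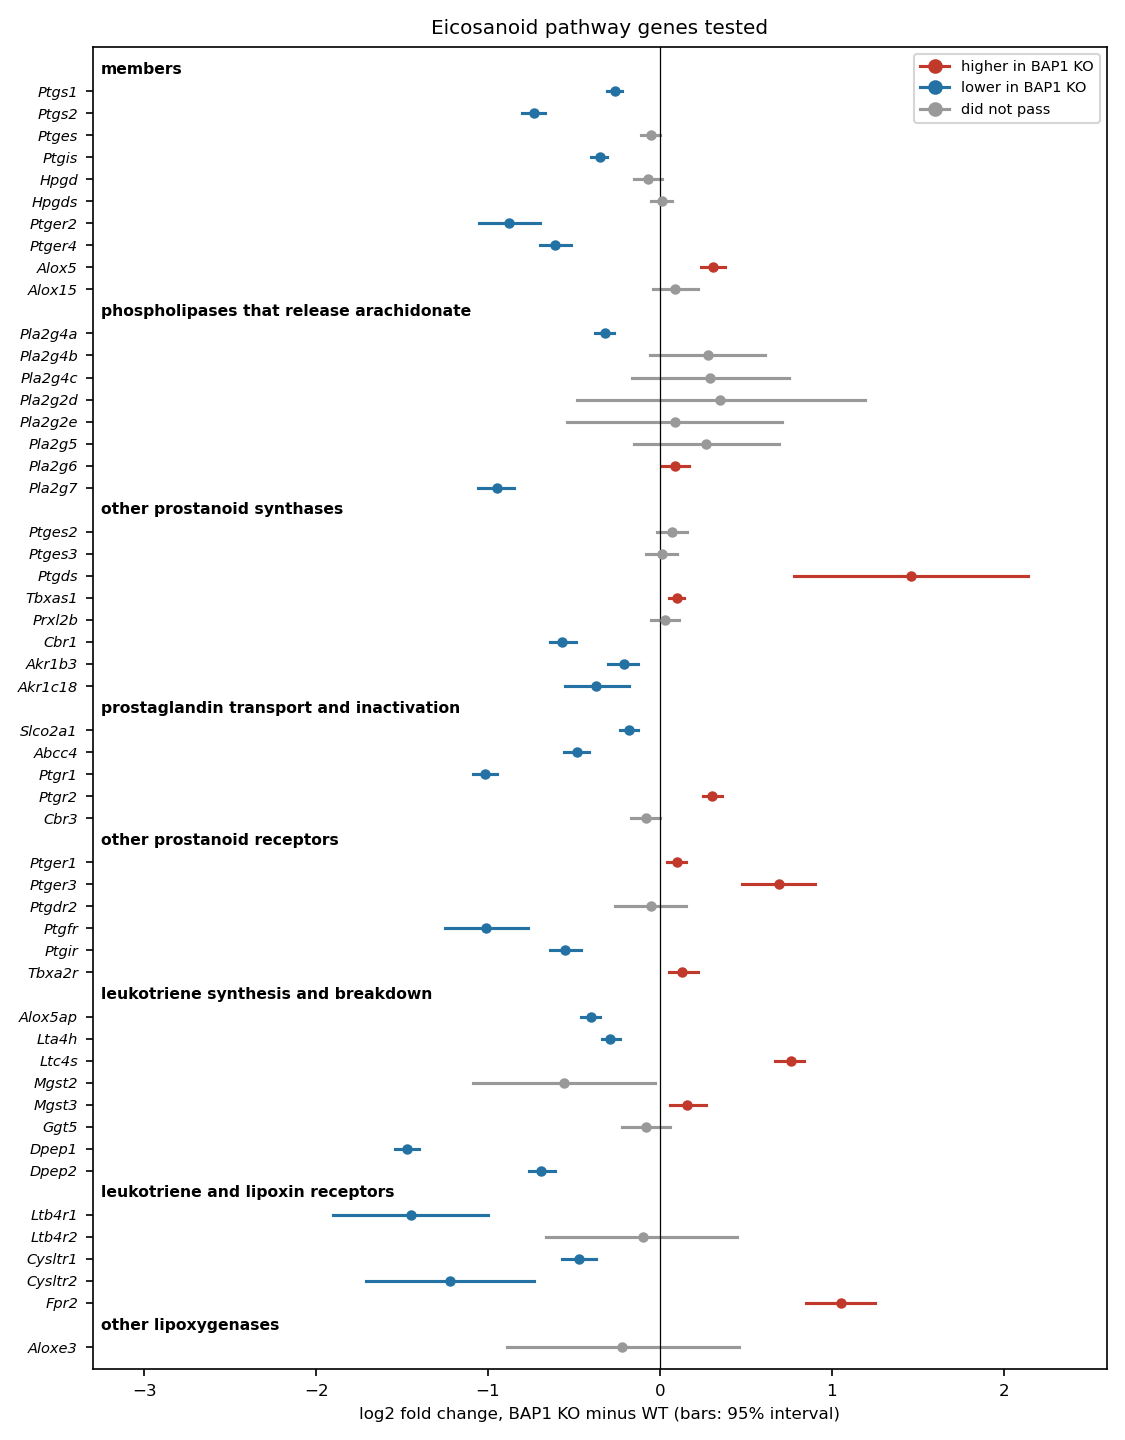
Log2 fold change, BAP1 KO minus WT (horizontal axis), with 95% intervals for the 10 genes and the 41 tested genes of the wider list, grouped by role (down the page). Red marks genes higher and blue genes lower in BAP1 KO, and grey genes did not pass; Alox5 and Ltc4s lie right of 0, and Alox5ap, Lta4h and Dpep1 left of it.

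Markers of several cell types were called higher or lower in BAP1 KO libraries, as were 61.1% of all genes tested (32.1% lower and 29.0% higher). The part of these cell types in the results above was not tested. Of 12 macrophage markers, 6 rose and 6 fell, and their summed level was 16503 to 17027 CPM in BAP1 KO libraries and 14155 to 14462 CPM in WT libraries. Lyz2 alone, at 11027 CPM in BAP1 KO and 8388 CPM in WT, made up most of both sums. The direction of the sums is therefore that of Lyz2, and no rise of the other macrophage markers follows from it. The 5 markers of resident peritoneal macrophages, among them Vsig4 and Gata6, fell, summing to 283 to 288 CPM in BAP1 KO and 303 to 318 CPM in WT. Gata6 is also known from mesothelial cells. Of 9 mesothelial markers, 3 rose and 4 fell, with sums of 1120 to 1126 CPM in BAP1 KO and 1065 to 1094 CPM in WT. Of 7 fibroblast markers, 6 fell, with sums of 12431 to 12927 CPM in BAP1 KO and 15219 to 16334 CPM in WT. Of 4 platelet and megakaryocyte markers, 3 fell. The most abundant was Pf4, a chemokine that macrophages also make, at 76.8 CPM in BAP1 KO and 147 CPM in WT. Neutrophil markers, 5 in all, summed to at most 0.996 CPM in BAP1 KO and 1.26 CPM in WT, and eosinophil markers, 4 in all, to at most 2.09 CPM in BAP1 KO and 1.95 CPM in WT. Endothelial markers summed to 18.3 to 19.6 CPM in BAP1 KO and 28.6 to 29.6 CPM in WT, with 3 of 4 tested lower. Adipocyte markers summed to at least 12.3 CPM in BAP1 KO and at most 7.55 CPM in WT, with all 4 tested higher and Lep at 0 in every library. Dendritic cell markers summed to 9.25 to 10.7 CPM in BAP1 KO and 11.7 to 12.8 CPM in WT. Of 3 tested, 1 was lower and 1 higher. Zbtb46, at 8.68 CPM in BAP1 KO and 11.5 CPM in WT, made up most of these sums, while Cd209a rose (0.575 and 0.15 CPM). Those of B and T cells summed to 3.03 to 3.35 CPM in BAP1 KO and 4.94 to 5.16 CPM in WT. Of 4 tested, 1 was lower and 1 higher: Cd4 fell (1.14 CPM in BAP1 KO and 3.27 CPM in WT) and Cd79a rose (0.915 and 0.588 CPM). Smooth muscle markers, 2 higher and 1 lower of 5, overlapped between the genotypes in their sums. Those sums were 11359.7 to 11547 CPM in BAP1 KO and 11281 to 11727 CPM in WT. No listed marker other than Lep was at 0 in every library.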

How the data were processed

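Polyadenylated RNA of 8 libraries (TruSeq RNA v2, single-end reads on a HiSeq4000, per the labels' protocols) was grouped by the genotype in the labels. GSNAP and the build GRCm38 are named in the submitters' processing notes without versions. No label used here names the annotation or the strand setting. The deposited counts are reads aligning uniquely to each gene model, per the file headers, so reads shared by near-identical genes are missing from both. The deposited RPKM were adjusted by a size factor by the authors, per the file headers, and served for levels per length. RefSeq on GRCm38.p6 gave symbols to 31049 of 36528 identifiers; the others held 1.18 to 1.33% of the counts of a library and stayed in the tests.

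The test was that of edgeR 4.0.16, run in R 4.3.3, on the deposited counts: TMM factors, filterByExpr, robust quasi-likelihood F test, Benjamini-Hochberg adjustment. Each SE was derived from the log2 fold change and the square root of its F statistic. The fit was checked on simulated counts. Alternatives were library totals alone, RLE or upper quartile factors, no filter, CPM above 1 in 4 libraries, DESeq2 1.42.0, limma 3.58.1 with voom or on log2(nRPKM + 0.1), 1 surrogate variable (sva 3.50.0), a test against 1.5-fold, and each library left out. The members, lists and motifs were chosen with earlier results of these data known. The rule for named genes took the 10 members, Bap1, and the 3 most abundant genes of each role and marker list. Marker lists are given mainly by their sums, and the values of Ptger1 are not reported here. Wt1, Msln, Ltc4s, Ptger3, Ptgfr, Abcc4, Dpep2 and Ptgds lie outside the rule and were named after their values were seen. Replicate numbers were assigned here in accession order and only name libraries. Exon overlaps come from GENCODE vM21.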

Additional observations from a re-analysis of the deposited data

Results flagged for a closer look

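In 4 of 62 groups of 4 libraries examined, 1 library stood apart from the other 3; chance flags about 1 in 20 such groups. The lowest BAP1 KO value of Ltc4s was 23.1 CPM in replicate 3, where the others had 25.1 to 25.2 CPM, still above each WT library. The highest BAP1 KO value of Ltb4r1 was 0.491 CPM in replicate 3, where the others had 0.231 to 0.262 CPM. The lowest WT value of Ptgr2 was 50.4 CPM in replicate 2, where the others had 52.2 to 52.4 CPM. The highest WT value of Prxl2b was 28.5 CPM in replicate 1, where the others had 26.1 to 26.4 CPM. None of the 10 genes described first was among them.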

How the results depend on the processing

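Under all 18 alternatives, Ptgs1, Ptgs2, Ptgis, Ptger2 and Ptger4 had negative and Alox5 positive log2 fold changes, and all 6 were called in each but the test against a 1.5-fold change, where Ptgs2 and Ptger2 were. That test called 1384 of all genes (370 higher, 1014 lower), 2 of the 10 members and 10 of the wider list. In the other alternatives, 6 or 7 members and 24 to 29 genes of the wider list were called. The sign of Hpgds, never called, turned with upper quartile factors (0.00), with library totals alone (-0.01) and on leaving out single libraries (-0.01 to 0.03), and that of Aloxe3 without WT replicate 3 (0.01; -0.51 to 0.01 over the libraries left out). The cause was not tested. No scaling moved the median log2 fold change of all genes beyond -0.02. No paired analysis was possible because the labels give no replicate numbers; those used here only name libraries. Ptger2, at 165 to 398 counts, had the least depth of the 10.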

Other observations

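Genes of the wider list outside the naming rule, chosen after their values were seen, also differed. Ptger3, the prostaglandin E2 receptor EP3, rose to 2.89 ± 0.25 CPM in BAP1 KO, against 1.79 ± 0.21 CPM in WT (SD, n = 4 each), with a log2 fold change of 0.69 ± 0.10 (edgeR adjusted p = 9.5e-07). Ptgfr, the prostaglandin F receptor, fell to 1.15 ± 0.16 CPM in BAP1 KO, against 2.33 ± 0.12 CPM in WT (SD, n = 4 each; -1.01 ± 0.12), and its exons overlap Gm43618 on the opposite strand over 329 bp. Abcc4, a pump that exports prostaglandins, had 19.6 ± 0.50 CPM in BAP1 KO and 27.4 ± 0.38 CPM in WT (SD, n = 4 each; -0.48 ± 0.04, edgeR adjusted p = 4.8e-13). Dpep2, a second dipeptidase that acts on leukotriene D4, fell to 18.6 CPM in BAP1 KO, against 30.0 CPM in WT (-0.69 ± 0.04), with exon overlap with Dus2 and other neighbours. Ptgds, the lipocalin-type prostaglandin D synthase, rose by 1.46 ± 0.33 at levels of 0.275 and 0.097 CPM in BAP1 KO and WT.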
